A study of Mus musculus with 16 samples.

Results

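Caffeine and nicotine were compared directly in tissue labelled nucleus accumbens from male C57BL/6 mice. The comparison used the 4 caffeine and the 4 nicotine libraries among 16 RNA libraries and every gene with enough counts. The other 8 libraries came from mice given saline or arecoline, and all 4 groups were exposed for 4 days. The deposited table held 22337 gene rows, of which 14674 passed the filter on low counts and were tested. The sources used here do not give doses, routes or ages. Nor do they state whether each library is a different animal, so p-values reflect only library-to-library spread, which may be technical.

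Caffeine blocks adenosine receptors, which in the striatum oppose the signals of dopamine receptors. Nicotine opens nicotinic acetylcholine receptors, cation channels that sit on dopamine terminals and on many other neurons. The accumbens is the ventral part of the striatum. Most of its neurons are GABA-releasing medium spiny neurons, of a direct pathway marked by the dopamine receptor Drd1 and an indirect pathway marked by Drd2 and the adenosine receptor Adora2a.

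The accumbens label was checked against markers of medium spiny neurons. On the FPKM scale, which accounts for gene length, the group mean of Drd1 was 5.68 with caffeine and 5.99 with nicotine, and that of Drd2 was 0.903 and 1.45. Slc17a7, which loads glutamate into vesicles of excitatory neurons, mainly cortical, averaged 149 FPKM with caffeine and 129 FPKM with nicotine. In saline the means were 38.0 FPKM for Drd1, 7.95 FPKM for Drd2 and 75.0 FPKM for Slc17a7. Saline replicate 3 was far from the other saline libraries in these genes (values below). In the caffeine and nicotine libraries the defining markers of medium spiny neurons were thus detected but low beside a cortical marker, which goes against the label, and the libraries are named here by their compound. Levels in CPM are counts scaled to a common library total, with TMM factors for single genes and without them for sums over a marker list. Summed over 15 markers shared by all medium spiny neurons, the level was between 1637 and 1643 CPM in caffeine replicates 1 to 3 and 2793 CPM in replicate 4. The 4 nicotine libraries lay between 1833 and 2357 CPM, and the saline libraries between 2842 and 11370 CPM. Saline replicate 3 held that maximum, with 306 CPM of Drd1, 58.5 CPM of Drd2 and 56.7 CPM of Slc17a7. Saline replicates 1, 2 and 4 lay between 2842 and 3287 CPM. In them Drd1 was at 71.9 to 82.5 CPM, Drd2 at 4.83 to 10.5 CPM and Slc17a7 at 266 to 292 CPM. Arecoline replicates 1 and 4 were at 1528 and 1605 CPM, below every caffeine library, and replicates 2 and 3 at 7613 and 9944 CPM. Over 15 cortical markers the sums were 1810 to 1991 CPM with caffeine, 1763 to 2239 CPM with nicotine and 627 to 1509 CPM with saline. Caffeine and nicotine therefore overlapped in both sums. In RNA from whole tissue, fewer cells of a type and less RNA per cell cannot be told apart.

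Nicotine replicate 2 stood apart from the other 7 libraries. It had 83.6 on the second principal component of the log2 CPM values, which held 17.9% of the variance, while the other 15 libraries lay between -41.0 and 12.3. Fibroblast and meningeal markers summed to 1175 CPM in it and to between 118 and 237 CPM in the others of the comparison. Markers of the support and gland cells of the olfactory lining summed to 2084 CPM in it, against 2.85 to 190 CPM. It also had the lowest total, 9.04 M estimated counts. Totals averaged 19.5 ± 4.74 M with caffeine and 13.5 ± 3.22 M with nicotine (SD, n = 4 each), a difference with an exact two-sided permutation p of 0.114, where 0.0286 is the smallest possible. Mitochondrially encoded genes took 4.08 ± 0.343% and 4.72 ± 0.539% of the counts (exact permutation p = 0.171). Results that rest on nicotine replicate 2 are given with and without it.

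**Figure D1:**
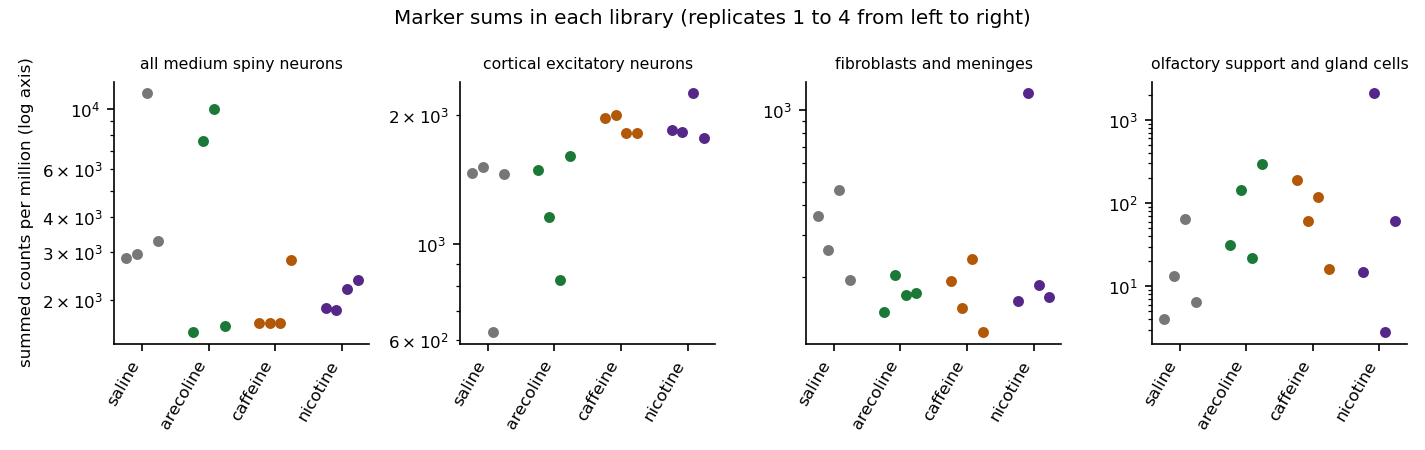
Summed CPM (without TMM factors) of 4 marker lists on log axes, with 1 point per library. Replicates 1 to 4 run from left to right within each group. Nicotine replicate 2 is at 1175 CPM for fibroblast and meningeal markers and at 2084 CPM for olfactory support cells, far above the other nicotine libraries.

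No gene passed an adjusted p of 0.05 between caffeine and nicotine in edgeR's quasi-likelihood test. That is 0 of 14674 genes (0%), with a smallest adjusted p of 0.493. At an unadjusted p under 0.05 there were 1365 genes (9.3%), of which 518 (3.53%) had the higher level with caffeine and 847 (5.77%) with nicotine. DESeq2 called 5 of 14613 genes (0.0342%), and limma on the FPKM values called 0. For 897 genes (6.11%) the 4 caffeine and 4 nicotine libraries did not overlap, with 460 (3.13%) higher with caffeine and 437 (2.98%) higher with nicotine. Without nicotine replicate 2 the unadjusted count was 865 of 14796 genes (5.85%), split into 411 (2.78%) and 454 (3.07%), and 603 genes were in the count both with and without it.

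The intervals show what sizes of difference these libraries left possible. Log2 fold changes are given throughout as caffeine minus nicotine. The 95% interval lay inside 1.5-fold in both directions for 7962 genes (54.3%), inside 2-fold for 11269 (76.8%) and inside 4-fold for 13576 (92.5%). The median difference over all genes was -0.02 on the log2 scale, and 46.3% of genes were above 0. A fitted difference of at least 2-fold was found for 648 genes, and the groups did not overlap for 86 of them.

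The genes with the smallest p higher with caffeine encode a glutamate receptor subunit, a kinetochore protein and a phosphatase. Grik3 (mm10 chromosome 4, 125490700 to 125714173), a subunit of kainate-type glutamate receptors, was at 51.1, 43.4, 40.3 and 41.5 CPM in the caffeine libraries and at 29.0, 24.8, 27.9 and 29.6 CPM in the nicotine libraries. Every caffeine library was above every nicotine library. The log2 fold change was 0.66 ± 0.13 (SE), with an adjusted p of 0.493 in edgeR and 0.0208 in DESeq2, and saline averaged 34.3 CPM, between the groups. Nuf2 (chromosome 1, 169497934 to 169531464), part of the complex that ties chromosomes to the spindle, was at 3.15, 2.79, 2.77 and 2.28 CPM with caffeine. With nicotine it was at 0.452, 0.642, 0.990 and 0.807 CPM, so the groups again did not overlap. Its log2 fold change was 1.90 ± 0.38, with an adjusted p of 0.493 in edgeR and 0.0266 in DESeq2, and the saline mean of 2.89 CPM was on the caffeine side.

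Prr3 and Ppm1g differed less in size. Prr3 (chromosome 17, 35972541 to 35980236) ran from 30.3 to 35.5 CPM with caffeine and from 22.9 to 26.7 CPM with nicotine, a log2 fold change of 0.48 ± 0.12. Ppm1g (chromosome 5, 31202664 to 31220687), a protein phosphatase that needs magnesium or manganese, ran from 77.0 to 96.2 CPM and from 62.5 to 69.5 CPM (log2 fold change 0.41 ± 0.10). Neither gene's groups overlapped, and both had an adjusted p of 0.493 in edgeR. Sept2, the remaining gene of the 5 with the smallest p, encodes a septin of the cytoskeleton. It has 2 overlapping rows in the table and cannot be read from either alone. The row with the small p was at 7.08 ± 1.78 CPM with caffeine and 3.49 ± 0.476 CPM with nicotine (SD, n = 4), while the more abundant row was at 65.3 ± 11.3 CPM and 83.1 ± 4.90 CPM. Their log2 fold changes were 1.01 and -0.35, and the summed level was 72.4 CPM with caffeine and 86.6 CPM with nicotine.

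**Figure D2:**
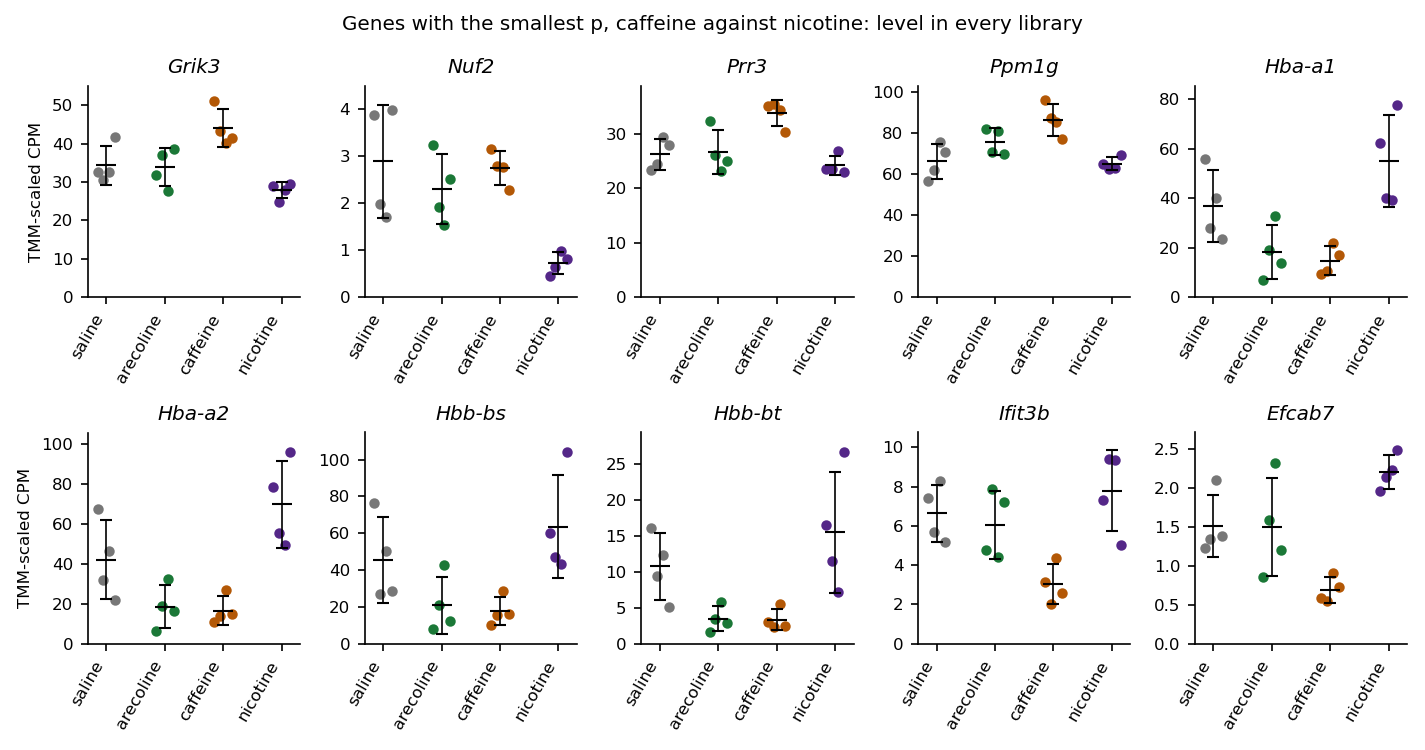
TMM-scaled CPM in each of the 16 libraries for genes with the smallest p between caffeine and nicotine, with Hbb-bs added to complete the globins, where points are libraries and bars the mean ± SD (n = 4). Caffeine and nicotine do not overlap in any panel, as for Grik3 at 40.3 to 51.1 CPM against 24.8 to 29.6 CPM.

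On the nicotine side, 3 of the 5 genes with the smallest p were globins, the chains of haemoglobin. The alpha-globin genes Hba-a1 and Hba-a2 and the beta-globin genes Hbb-bs and Hbb-bt are neighbours on chromosomes 11 and 7. Their promoters, from RefSeq on GRCm38.p6, are shown to compare the neighbouring copies. How far the 4 counts are separate measurements depends on the transcripts, whose identity is given below. Each run holds the 120 bases before the RefSeq start, 5′ to 3′ on the gene's strand, with capitals for CCAAT on either strand. The positions are chr11:32283552-32283671 (+ strand), chr11:32296372-32296491 (+ strand), chr7:103827929-103828048 (- strand) and chr7:103813924-103814043 (- strand).
Hba-a1: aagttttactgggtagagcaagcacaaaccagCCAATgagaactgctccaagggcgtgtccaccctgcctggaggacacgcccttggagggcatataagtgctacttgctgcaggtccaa
Hba-a2: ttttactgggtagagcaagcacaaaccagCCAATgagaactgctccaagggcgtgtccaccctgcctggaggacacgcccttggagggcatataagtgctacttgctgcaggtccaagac
Hbb-bs: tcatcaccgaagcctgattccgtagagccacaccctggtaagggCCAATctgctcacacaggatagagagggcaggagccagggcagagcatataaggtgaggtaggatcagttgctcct
Hbb-bt: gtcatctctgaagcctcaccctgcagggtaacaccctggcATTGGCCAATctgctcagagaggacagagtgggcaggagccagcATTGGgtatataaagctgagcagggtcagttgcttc
The 2 alpha-globin windows of 300 bases were identical over the 297 bases that aligned, and their longest transcripts were 99.8% identical over the aligned bases. The beta-globin transcripts were 92.7% identical and their promoter windows 74.7%. CCAAT, searched on both strands, was in the windows of 5 of the 6 red blood cell genes with a promoter in the RefSeq table, and in 42.7% of the 11408 tested genes with one.

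Globin transcripts were more abundant in every nicotine library than in any caffeine library. The 4 genes summed to 33.3, 42.1, 82.8 and 50.0 CPM in the caffeine libraries and to 217, 154, 139 and 305 CPM in the nicotine libraries, a ratio of means of 3.91. The saline mean of 135 ± 61.8 CPM lay between the groups, and the arecoline mean of 60.9 ± 38.7 CPM (SD, n = 4 each) lay near caffeine. Hba-a1 and Hba-a2, which share nearly all their sequence, summed to a ratio of 4.0, and Hbb-bs and Hbb-bt to a ratio of 3.79.

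Gene by gene, Hbb-bt was at 3.00, 2.33, 5.46 and 2.49 CPM with caffeine and at 16.6, 11.5, 7.12 and 26.8 CPM with nicotine. Its log2 fold change was -2.21 ± 0.46, with an adjusted p of 0.493 in edgeR and 0.00657 in DESeq2. Hba-a2 had a log2 fold change of -2.08 ± 0.43 (DESeq2 adjusted p = 0.0287), Hba-a1 of -1.89 ± 0.41 (DESeq2 adjusted p = 0.0690) and Hbb-bs of -1.85 ± 0.48 (DESeq2 adjusted p = 0.166). All 4 genes had non-overlapping groups. When nicotine replicate 2 was left out, the 4 differences were -2.33, -2.18, -2.01 and -1.98. Alas2, which starts haem synthesis in red cell precursors, was 3.71-fold higher with nicotine in the fit (log2 fold change -1.89 ± 0.71), at 0.0968 to 0.992 CPM with caffeine and 0.979 to 3.23 CPM with nicotine. Those ranges overlapped slightly, and levels under 1 CPM rest on few reads. Bpgm, a red cell enzyme that other cells also express, had a log2 fold change of -0.14 ± 0.14.

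The remaining genes with the smallest p on the nicotine side were Ifit3b, a gene switched on by interferon, and Efcab7. Ifit3b (chromosome 19, 34607970 to 34613401) was at 3.15, 2.02, 4.38 and 2.59 CPM with caffeine and at 7.31, 9.42, 9.34 and 5.04 CPM with nicotine. The groups did not overlap, and saline averaged 6.65 CPM, close to nicotine. Its log2 fold change was -1.34 ± 0.29 (adjusted p = 0.493 in edgeR and 0.0287 in DESeq2), and it was -1.24 without nicotine replicate 2. Its neighbour Ifit3 had the same fitted difference, -1.34 ± 0.47, but rested on nicotine replicate 2, where it was at 39.0 CPM, and was -0.46 without that library. The transcripts of Ifit3 and Ifit3b were 98.0% identical over the aligned bases, so the split of reads between them is uncertain. Their sum was 6.39 to 12.7 CPM with caffeine and 12.2 to 48.4 CPM with nicotine, and these ranges overlapped. Efcab7 (chromosome 4, 99829198 to 99912788), whose protein takes part in hedgehog signalling at the cilium, was at 0.543 to 0.909 CPM with caffeine and at 1.96 to 2.49 CPM with nicotine, a log2 fold change of -1.65 ± 0.36.

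The 100-base stretches that hold the interferon-response motif are shown because they are the same in both neighbours. They come from RefSeq on GRCm38.p6 at chr19:34607752-34607851 and chr19:34583356-34583455, both on the + strand, and capitals mark pairs of GAAA spaced by 2 bases of any kind, which here lie on the other strand.
Ifit3b: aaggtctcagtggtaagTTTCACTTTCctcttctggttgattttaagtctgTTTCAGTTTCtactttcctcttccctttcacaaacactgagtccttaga
Ifit3: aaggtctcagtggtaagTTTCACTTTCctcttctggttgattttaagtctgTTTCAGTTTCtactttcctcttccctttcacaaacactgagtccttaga
Searched on both strands, that pair was in the promoter window of 11 of 20 listed interferon genes (55%) and of 413 of the 11408 tested genes with a window (3.62%).

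The direct targets of caffeine did not separate the groups. Adora1 (chromosome 1, 134199223 to 134235431), the inhibitory adenosine receptor found across the brain, was at 176, 208, 168 and 202 CPM with caffeine and at 176, 147, 192 and 187 CPM with nicotine. These ranges overlapped, and the log2 fold change of 0.10 ± 0.16 had a 95% interval from -0.23 to 0.44. Adora2a (chromosome 10, 75316877 to 75334784), the stimulatory receptor of indirect-pathway neurons, was at 2.76, 3.03, 3.14 and 35.7 CPM with caffeine and at 12.1, 5.89, 22.8 and 33.8 CPM with nicotine. Caffeine replicate 4 was above every nicotine library and the other caffeine libraries below them all. The interval of the log2 fold change was -3.55 to 2.05, so an Adora2a difference of 4-fold either way was within it.

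Enzymes and carriers that set adenosine levels gave small differences in both directions. Of 18 genes in the adenosine list, 1 was higher with caffeine and 2 with nicotine at an unadjusted p under 0.05, beside 3.53% and 5.77% of all genes. None passed after adjustment, and the median log2 fold change was -0.04. Entpd2, which breaks down ATP outside the cell, had a log2 fold change of 0.38 ± 0.14. Adk, the kinase that removes adenosine inside cells, had -0.27 ± 0.11, and Slc29a4, a membrane transporter of monoamines and adenosine, had -0.64 ± 0.27. None of these 3 had non-overlapping groups.

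Nicotinic receptor subunits did not separate the groups either. Summed over 13 subunit genes, the level was 182, 200, 172 and 174 CPM with caffeine and 141, 142, 154 and 186 CPM with nicotine. Only nicotine replicate 4 overlapped the caffeine range. Chrna4 and Chrnb2 form the most common high-affinity receptor of the brain. Chrna4 (chromosome 2, 181018380 to 181043546) was at 54.8 to 72.0 CPM with caffeine and 43.6 to 62.1 CPM with nicotine, a log2 fold change of 0.32 ± 0.22. Chrnb2 (chromosome 3, 89746195 to 89764632) was at 89.8 to 113 CPM and 69.5 to 98.8 CPM, with a log2 fold change of 0.25 ± 0.12. Chrna7, the subunit of the fast calcium-permeable receptor, had 0.04 ± 0.28, with an interval from -0.56 to 0.64. Of 10 subunit genes tested, 0 reached an unadjusted p under 0.05, beside 9.3% of all genes. Their median log2 fold change was -0.42, or -0.12 without nicotine replicate 2, opposite in sign to the summed level, in which Chrna4 and Chrnb2 weigh most.

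Among 8 genes that help nicotinic receptors assemble, 1 had non-overlapping groups, beside 3.13% of all genes without overlap and higher with caffeine. That gene was Tmem35a (chromosome X, 134295225 to 134305969). It encodes the chaperone NACHO, which Chrna7 receptors need. It was at 131, 106, 107 and 96.1 CPM with caffeine and at 82.5, 81.5, 93.6 and 93.7 CPM with nicotine, a log2 fold change of 0.32 ± 0.11 (edgeR adjusted p = 0.493). Of 10 genes for muscarinic receptors and acetylcholine metabolism, Chrm1, the main muscarinic receptor of forebrain neurons, was at 279 to 355 CPM and 250 to 297 CPM, a log2 fold change of 0.23 ± 0.10. Bche, a cholinesterase, had a log2 fold change of -1.92 ± 0.78 that rested on nicotine replicate 2, which had 30.6 CPM while the other 7 libraries had 3.15 CPM or less. Without that library its difference was 0.21. Chat, the acetylcholine-synthesising enzyme, was at 0.0484 to 1.92 CPM with caffeine and 0.321 to 2.35 CPM with nicotine.

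**Figure D3:**
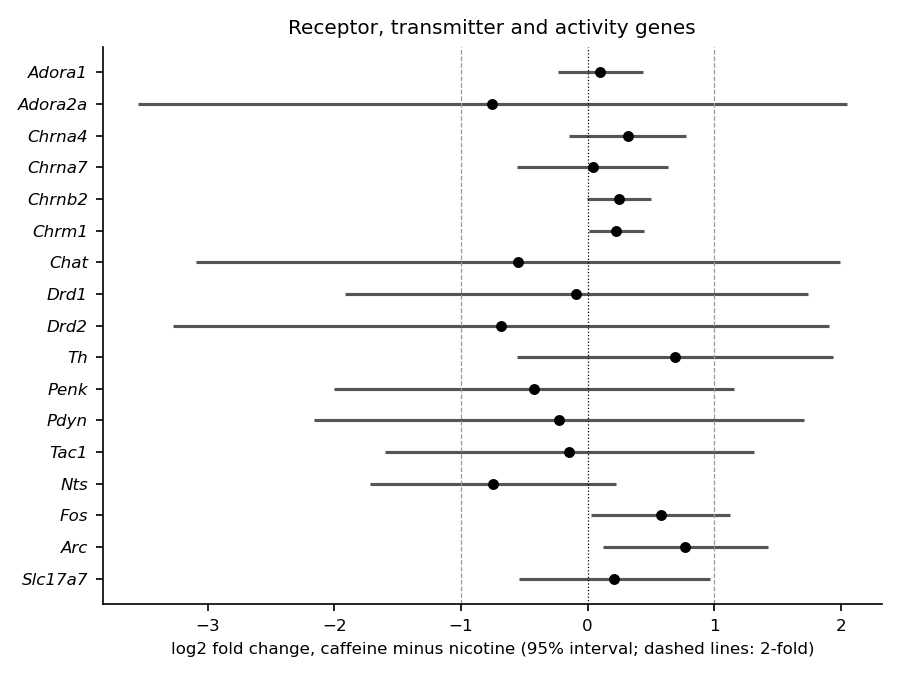
Fitted log2 fold change, caffeine minus nicotine, of 17 receptor, transmitter and activity genes, where points are estimates, lines 95% intervals and dashed lines a 2-fold difference. The intervals of Adora2a, Chat, Drd1 and Drd2 reach past 2-fold in both directions, while those of Adora1, Chrnb2 and Chrm1 stay well inside it.

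Dopamine receptors and the peptides of medium spiny neurons varied more within groups than between them. Drd1 (chromosome 13, 54051183 to 54055705) was at 7.89, 19.6, 9.10 and 45.6 CPM with caffeine and at 20.3, 14.3, 24.4 and 27.7 CPM with nicotine, with a log2 fold change of -0.09 ± 0.86. Caffeine replicate 4 held the highest value and caffeine replicate 1 the lowest. The log2 fold changes were -0.69 ± 1.22 for Drd2, -0.42 ± 0.75 for the enkephalin precursor Penk, -0.23 ± 0.92 for the dynorphin precursor Pdyn and -0.14 ± 0.69 for the substance P precursor Tac1. Each of these 5 intervals included a 2-fold difference in either direction. Th, the enzyme that starts dopamine synthesis, was at 3.21 to 20.7 CPM with caffeine and 4.07 to 7.82 CPM with nicotine. Nts, the precursor of neurotensin, was at 4.99, 6.67, 3.85 and 6.68 CPM with caffeine and at 6.93, 8.89, 11.2 and 10.0 CPM with nicotine, so its groups did not overlap. Its log2 fold change was -0.75 ± 0.46 (edgeR adjusted p = 0.603). The saline level of Nts was higher than both, at 16.5 to 29.2 CPM. Summed markers of medium spiny neurons were also higher in saline, and their part in these values was not tested.

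Some activity-dependent genes, which neurons switch on within minutes of firing, leaned to higher levels with caffeine. Of 30 immediate early genes, 8 were higher with caffeine at an unadjusted p under 0.05 and 0 with nicotine, against 3.53% and 5.77% of all genes. Of the 30 differences 16 were above 0 and 14 below, with a median of 0.20, while 46.3% of all genes were above 0. None passed after adjustment. Npas4 (chromosome 19, 4984355 to 4990316), a transcription factor driven by calcium entry, was at 17.9, 12.2, 3.85 and 13.2 CPM with caffeine and at 5.73, 4.60, 2.91 and 2.62 CPM with nicotine. Caffeine replicate 3 lay inside the nicotine range and the other caffeine libraries above it, with a log2 fold change of 1.57 ± 0.48. Arc, which acts in synaptic plasticity, was at 139, 204, 177 and 313 CPM with caffeine and at 96.7, 85.1, 161 and 143 CPM with nicotine, and Fos at 47.5, 55.3, 55.6 and 94.8 CPM and at 26.97, 41.4, 54.3 and 46.9 CPM. In both genes caffeine replicate 4, the library with the most medium spiny neuron markers of its group, was the highest, and the part of those markers in the result was not tested. Of the 30 genes 1 had non-overlapping groups, beside 3.13% of all genes without overlap and higher with caffeine. That gene, the nuclear receptor Nr4a3, was at 20.5 to 24.4 CPM and 11.6 to 16.6 CPM, with a log2 fold change of 0.71 ± 0.23. Jun had 0.52 ± 0.17 and Dusp6, a phosphatase that limits ERK signalling, 0.42 ± 0.14. With nicotine replicate 2 left out, 4 of the 30 genes were higher with caffeine at that level, beside 2.78% of all genes.

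Chaperone genes leaned the same way. Of 22 cytosolic heat shock genes, 6 were higher with caffeine at an unadjusted p under 0.05 and 0 with nicotine, 4 had non-overlapping groups, and the median log2 fold change was 0.14. Of all genes, 3.53% were higher with caffeine at that level and 3.13% without overlap. With nicotine replicate 2 left out, the count of 6 was 3 of 22, beside 2.78% of all genes. Hsp90ab1 (chromosome 17, 45567775 to 45573271), the constitutive HSP90 chaperone, was at 2480, 2435, 2062 and 2042 CPM with caffeine and at 1991, 1605, 1764 and 1818 CPM with nicotine. Its groups did not overlap, and its log2 fold change was 0.33 ± 0.10 (edgeR adjusted p = 0.493). The HSP40-type co-chaperones Dnajb5 and Dnajb1 had 0.32 ± 0.10 and 0.25 ± 0.09. Hspa1a, the stress-inducible HSP70, had 0.49 ± 0.21, but it shares reads with its near copy Hspa1b.

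Among 23 chaperone and stress-response genes of the endoplasmic reticulum, 3 were higher with caffeine and 0 with nicotine at an unadjusted p under 0.05, both with and without nicotine replicate 2, beside 3.53% and 2.78% of all genes higher with caffeine. Atf4 (chromosome 15, 80255184 to 80257541), the transcription factor of the integrated stress response, was at 114, 119, 89.5 and 81.9 CPM with caffeine and at 70.7, 62.6, 73.3 and 64.1 CPM with nicotine. The groups did not overlap, saline averaged 70.3 CPM, and the log2 fold change was 0.57 ± 0.15 (edgeR adjusted p = 0.493). Sdf2l1, part of a chaperone complex of the same compartment, had 0.34 ± 0.11, and the secreted stress protein Manf had 0.36 ± 0.14.

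All 78 cytosolic ribosomal protein genes, which build the machinery of protein synthesis, had a higher fitted level with caffeine than with nicotine. Their log2 fold changes ran from 0.05 to 0.49 with a median of 0.28, against -0.02 over all genes. At an unadjusted p under 0.05, 39 of 78 were higher with caffeine and 0 with nicotine, beside 3.53% and 5.77% of all genes. For 33 the groups did not overlap, beside 3.13% of all genes higher with caffeine. After adjustment 0 passed. Summed over the 78 genes, the level was 16240, 14300, 13840 and 13760 CPM with caffeine and 12730, 12510, 10950 and 12240 CPM with nicotine, so all caffeine libraries were higher. Saline ran from 10940 to 14870 CPM and overlapped both. Without nicotine replicate 2 the median was 0.26, with 30 genes at an unadjusted p under 0.05, beside 2.78% of all genes.

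**Figure D4:**
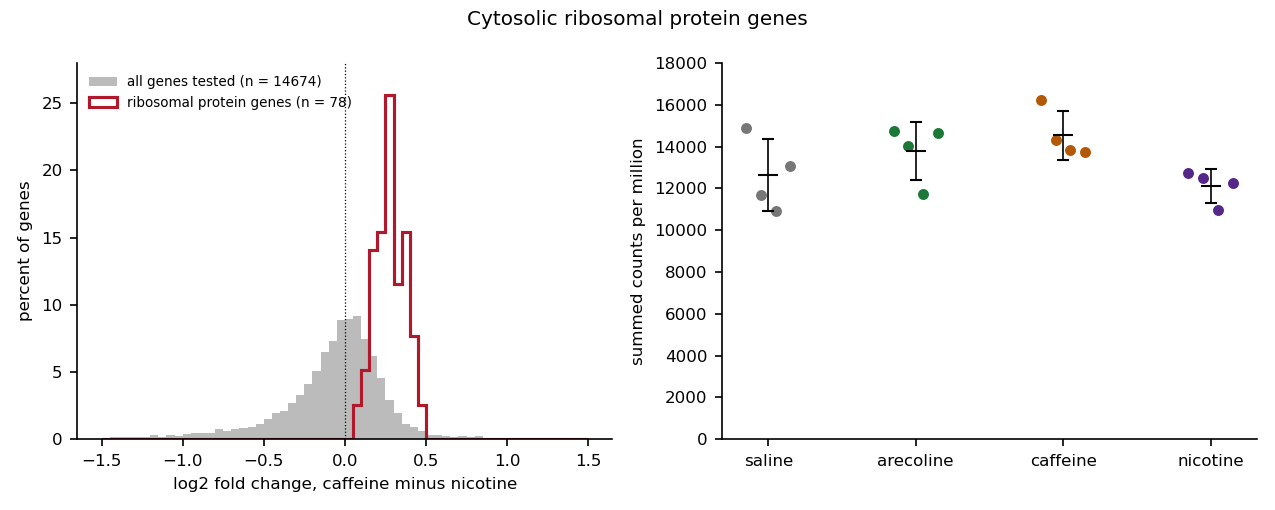
Left, distribution of the fitted log2 fold change, caffeine minus nicotine, in percent of genes, for all 14674 genes tested and for 78 cytosolic ribosomal protein genes. Right, summed CPM (without TMM factors) of the 78 genes in each library with the mean ± SD (n = 4). The lowest caffeine library (13760 CPM) is above the highest nicotine library (12730 CPM).

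Rpl27a (chromosome 7, 109519147 to 109522367), a protein of the large subunit, had the smallest p of the list. It was at 133, 120, 106 and 105 CPM with caffeine and at 84.2, 88.9, 80.0 and 86.9 CPM with nicotine, with no overlap and a log2 fold change of 0.45 ± 0.11 (edgeR adjusted p = 0.493). Rps2 and Rps7, of the small subunit, had 0.41 ± 0.12 and 0.46 ± 0.13. Reads of ribosomal protein genes can be split with processed pseudogenes, so single values are uncertain. These genes are also short, with a median transcript of 1077 bases against 3459 bases for all genes with a length. The 541 other genes of up to 1000 bases, a bound below the ribosomal median, had a median log2 fold change of 0.05. The 11386 other genes of up to 5179 bases, the longest ribosomal transcript, had -0.02. Neither set was matched to the ribosomal genes in length or level. The correlation of the log2 fold change with length was -0.05 (Spearman's rho, across 14659 genes, which are not independent replicates). The part of length in the ribosomal difference was not tested.

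Many ribosomal protein transcripts begin in a run of pyrimidines, the feature through which growth signalling controls their translation. The start of Rpl27a is shown as an example, from 30 bases before to 20 bases after the RefSeq start (GRCm38.p6, chr7:109519165-109519214, + strand), with CTTT at the start in capitals.
Rpl27a: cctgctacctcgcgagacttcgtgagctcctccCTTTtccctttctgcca
On the gene's strand, between 5 bases before and 10 bases after the start, CTTT was present in 15 of 57 listed ribosomal protein genes with a promoter window (26.3%) and in 671 of 11408 tested genes (5.88%). CTTTCC, which contains it, was present in 8 (14%) and 79 (0.692%).

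Genes of energy metabolism and protein breakdown had smaller median differences. For 74 nuclear-encoded genes of the respiratory chain the median difference was 0.07 on the log2 scale, with 2 higher with caffeine at an unadjusted p under 0.05 (3.53% of all genes), and for 31 proteasome subunits it was 0.10, with 2 higher. For the 13 mitochondrially encoded protein genes it was -0.14, with 2 higher with nicotine, beside 5.77% of all genes. With nicotine replicate 2 left out, that median was -0.20, with 4 of 13 higher with nicotine, beside 3.07% of all genes. The lowest p among the latter was that of mt-Atp8, a subunit of ATP synthase, at 113, 174, 155 and 227 CPM with caffeine and 265, 329, 221 and 257 CPM with nicotine. Caffeine replicate 4 reached above nicotine replicate 3, and the log2 fold change was -0.68 ± 0.30.

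Genes that respond to glucocorticoids leaned to higher levels with nicotine. Of 20 genes, 8 were higher with nicotine at an unadjusted p under 0.05 and 0 with caffeine, against 5.77% and 3.53% of all genes, 17 differences were below 0 and the median was -0.25. Nicotine replicate 2 was the highest of the 8 libraries for 14 of the 20 genes, and without it that count was 4, beside 3.07% of all genes, with a median of -0.13. Sgk1 (chromosome 10, 21882184 to 21999903), a kinase induced by corticosterone, was at 88.9, 89.5, 66.9 and 86.2 CPM with caffeine and at 106, 134, 117 and 115 CPM with nicotine. Its groups did not overlap, saline averaged 109 CPM, and its log2 fold change was -0.51 ± 0.14, or -0.45 without nicotine replicate 2 (edgeR adjusted p = 0.493). Klf15, a transcription factor induced by the same hormones, had -0.42 ± 0.15 and Tsc22d3, which encodes the anti-inflammatory protein GILZ, -0.27 ± 0.12. Lcn2, a secreted iron-binding protein, was at 0 to 0.532 CPM with caffeine and 0.471 to 2.57 CPM with nicotine.

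The circadian clock list held differences in both directions, and the sources used here do not give the time of tissue collection. Of 21 genes, 2 were higher with caffeine and 3 with nicotine at an unadjusted p under 0.05, beside 3.53% and 5.77% of all genes. Ciart (chromosome 3, 95878503 to 95882251), a repressor within the clock, was at 9.34, 13.9, 13.6 and 20.2 CPM with caffeine and at 21.4, 20.4, 27.04 and 21.3 CPM with nicotine, a log2 fold change of -0.66 ± 0.19. The groups came close in caffeine replicate 4 but did not overlap. Dbp, a clock-driven transcription factor, was at 25.6 to 45.3 CPM and 48.0 to 80.1 CPM (-0.96 ± 0.40), and Nr1d2, the repressor REV-ERB beta, at 44.4 to 63.5 CPM and 68.6 to 80.1 CPM (-0.37 ± 0.11). Nfil3, which opposes Dbp at shared sites, had 0.55 ± 0.20 and the clock activator Arntl 0.33 ± 0.14, in the opposite direction.

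Markers of newborn neurons and dividing cells were higher with caffeine in the fit. All 16 genes of the neuroblast and progenitor list had a difference above 0, with a median log2 fold change of 0.47, and 6 reached an unadjusted p under 0.05 and 7 had non-overlapping groups, beside 3.53% and 3.13% of all genes higher with caffeine. Dlx5 (chromosome 6, 6877805 to 6882085), a homeobox gene of interneuron precursors, was at 9.24, 11.8, 12.5 and 12.1 CPM with caffeine and at 7.61, 6.42, 6.19 and 7.06 CPM with nicotine (log2 fold change 0.74 ± 0.23). Mki67, a marker of cycling cells, was at 3.53, 5.67, 3.02 and 3.63 CPM with caffeine and at 1.43, 1.82, 1.24 and 0.672 CPM with nicotine (1.63 ± 0.56). Neither gene's groups overlapped. Igfbpl1, an early neuroblast gene, had 1.99 ± 0.74 and Tubb3, a tubulin of young neurons, 0.33 ± 0.14. Cdk1 and Kif23, which drive mitosis and cell separation and were chosen after their values were seen, had 1.64 ± 0.61 and 1.87 ± 0.72. Summed over the list, saline ran from 775 to 1188 CPM, nicotine from 959 to 1113 CPM and caffeine from 1266 to 1388 CPM. The caffeine libraries were above both, but arecoline, at 863 to 1654 CPM, overlapped each of these groups. Tubb3 weighed much in the sums, at 559 to 651 CPM with caffeine and 422 to 570 CPM with saline. Of the other list genes named, Igfbpl1 averaged 6.75 CPM with caffeine and 4.24 CPM with saline. Dlx5 and Mki67 did not exceed saline, averaging 11.4 and 3.96 CPM with caffeine and 13.6 and 4.23 CPM with saline. Saline was uneven, with Dlx5 at 10.7 to 21.5 CPM and Mki67 at 2.11 to 8.44 CPM. Without nicotine replicate 2 the median was 0.61, with 4 of 16 genes at an unadjusted p under 0.05, beside 2.78% of all genes.

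Glial genes leaned to nicotine by small amounts. All 16 mature oligodendrocyte genes had a difference below 0, with a median log2 fold change of -0.23, and 1 reached an unadjusted p under 0.05, beside 5.77% of all genes higher with nicotine. That gene, Aspa, which breaks down N-acetylaspartate for myelin lipids, was at 5.66, 6.29, 7.52 and 11.96 CPM with caffeine and at 13.3, 15.2, 9.71 and 15.1 CPM with nicotine (-0.76 ± 0.22). The summed oligodendrocyte level overlapped, at 3503 to 5801 CPM with caffeine and 4013 to 6033 CPM with nicotine. Of 16 astrocyte genes 13 were below 0, while 46.3% of all genes were above 0. At an unadjusted p under 0.05, 3 were higher with nicotine and 1 with caffeine, beside 5.77% and 3.53% of all genes. The astrocyte sums overlapped, at 5619 to 8165 CPM with caffeine and 7208 to 8937 CPM with nicotine. S1pr1, a sphingosine phosphate receptor, was at 116 to 162 CPM with caffeine and 167 to 199 CPM with nicotine (-0.34 ± 0.12). Of 16 microglial genes 14 were below 0, with a median of -0.17, and 3 were higher with nicotine and 0 with caffeine at that level. The 1 microglial gene of 16 without overlap was higher with caffeine, beside 3.13% of all genes. The microglial sums overlapped, at 882.5 to 1208 CPM with caffeine and 1162 to 1192 CPM with nicotine. The purinergic receptor P2ry13 had -0.53 ± 0.18 and the lipid receptor Gpr34 -0.38 ± 0.15.

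Channels, receptors and release genes of neurons showed few differences. Of 39 genes for glutamate receptors and their scaffolds, 3 were higher with caffeine, among them Grik3 and the AMPA receptor auxiliary subunit Cacng8 (0.48 ± 0.15), and 1 with nicotine, at an unadjusted p under 0.05, beside 3.53% and 5.77% of all genes. Kcng1 (chromosome 2, 168260117 to 168281736), a silent potassium channel subunit that modifies others, was at 142, 123, 146 and 82.8 CPM with caffeine and at 56.0, 57.1, 67.3 and 85.7 CPM with nicotine. Caffeine replicate 4 lay below nicotine replicate 4, and the log2 fold change was 0.89 ± 0.27. Of 66 potassium and HCN channel genes, 1 was higher with caffeine and 4 with nicotine at that level, which is near or below the shares of all genes. Of 35 synaptic vesicle genes and 31 sodium and calcium channel genes, 0 reached it.

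A few other genes had the smallest p of their lists. Srsf4, a splicing factor, was at 58.8 to 67.6 CPM with caffeine and 45.2 to 54.4 CPM with nicotine (0.34 ± 0.09). H2afx, the histone variant marked at DNA breaks, was at 66.8 to 82.7 CPM and 59.4 to 63.9 CPM (0.30 ± 0.10). Nos1, the neuronal nitric oxide synthase, was at 67.9 to 72.2 CPM and 45.7 to 56.3 CPM (0.43 ± 0.17). These 3 genes had non-overlapping groups, and each had an adjusted p of 0.493 in edgeR. Among cortical markers, Neurod2, a transcription factor of excitatory neurons, was at 93.7 to 143 CPM and 67.8 to 80.1 CPM (0.69 ± 0.41), again without overlap, while the median of its 15-gene list was -0.10.

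Several lists had large median differences that were much smaller without nicotine replicate 2. For 24 genes of interferon response and antigen presentation the median log2 difference was -0.79, and 9 were higher with nicotine at an unadjusted p under 0.05, beside 5.77% of all genes. Nicotine replicate 2 was the highest of the 8 libraries for all 24 tested genes. Without that library the median was -0.16 with 1 such gene, beside 3.07% of all genes. Among them B2m, the light chain of class I molecules, was at 74.5 to 96.0 CPM with caffeine, 168 CPM in nicotine replicate 2 and 88.1 to 99.6 CPM in the other nicotine libraries, and H2-D1, a class I heavy chain, had -0.60 with it and -0.28 without it. For 28 extracellular matrix genes the median was -0.57 with it and 0.09 without it, and for 12 fibroblast and meningeal markers -1.92 and 0.13. Ogn, a matrix proteoglycan of these cells, had 87.9 CPM in nicotine replicate 2, while the other 7 libraries had 6.28 CPM or less.

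Olfactory genes turned direction when that library was left out. Omp, the marker of mature olfactory sensory neurons, was at 27.7, 14.2, 9.18 and 0.518 CPM with caffeine and at 0.678, 337, 0.247 and 4.57 CPM with nicotine. The log2 fold change was -2.72 ± 1.40 with nicotine replicate 2 and 2.80 without it. For 16 olfactory sensory genes the median was -1.67 with it and 0.54 without it. For 11 genes of the olfactory support and gland cells the median was -2.95 and 2.78. Summed, those support genes were at 190, 61.3, 120 and 16.01 CPM in the caffeine libraries and at 14.7, 2084, 2.85 and 60.8 CPM in the nicotine libraries, so both groups were uneven and overlapped.

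**Figure D5:**
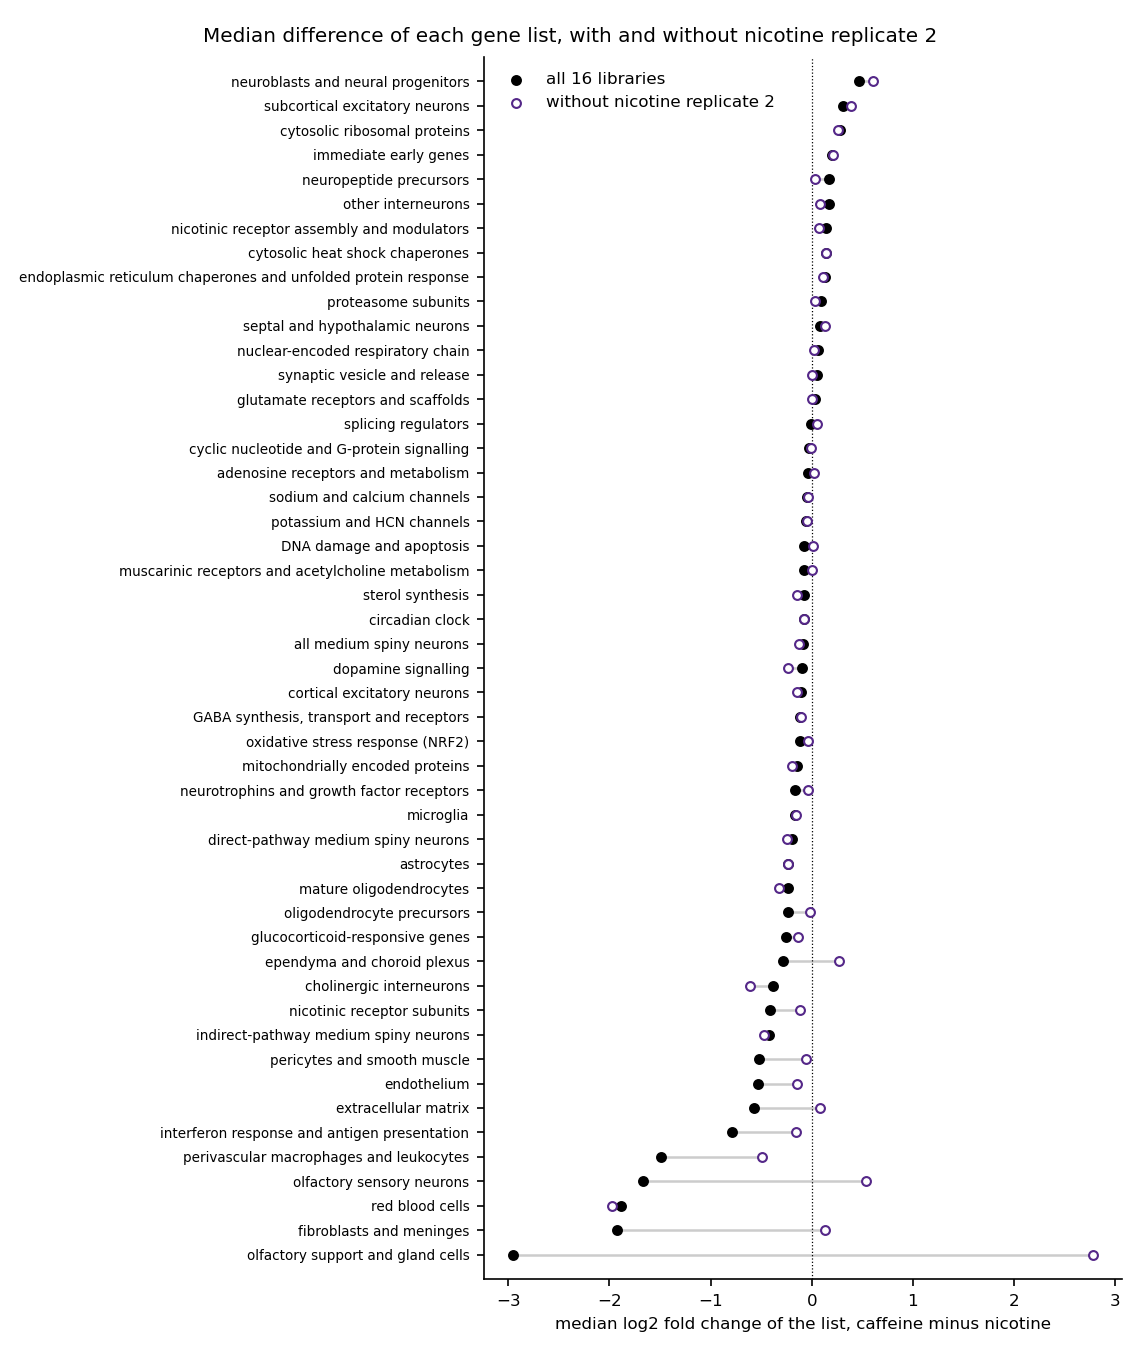
Median fitted log2 fold change, caffeine minus nicotine, of the 49 gene lists with all 16 libraries (filled) and without nicotine replicate 2 (open). Olfactory, fibroblast, matrix and interferon lists move toward or across 0 without that library, while red blood cell, ribosomal protein and neuroblast lists stay on their side.

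Set against the libraries outside the comparison, the saline mean was nearer to nicotine than to caffeine for 9608 of the 14674 genes (65.5%), on log2 CPM with 0.5 added. Among the 1365 genes with an unadjusted p under 0.05 the count was 1115 (81.7%), and among the 897 genes with non-overlapping groups 704 (78.5%). The arecoline mean was nearer to nicotine for 47.8% of all genes, for 39.1% of the 1365 and for 44.7% of the 897. Without nicotine replicate 2, saline was nearer to nicotine for 60.5% of all genes and for 73.1% of the 856 with an unadjusted p under 0.05. These counts describe the libraries and were not tested.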

How the data were processed

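Per the labels' protocols, oligo-dT primed cDNA was made by template switching and amplified by PCR. No molecular identifiers are mentioned, so amplified copies counted as reads, and the sources used here do not say whether strand was kept. The mm10 build and 5 tools are listed in the submitters' processing notes without role or order, namely RSEM, HISAT2, fastp 0.18.0, StringTie 1.3.1 and Bowtie2 2.2.8. Per the file headers, the authors deposited estimated counts and FPKM values for each library. The estimated counts deposited by the authors are not scaled for depth, and per library 86.6% to 90.4% of them, zeros among them, were whole numbers without any tolerance. The FPKM values computed by the authors are scaled to gene length and library total. Symbols and coordinates came from GENCODE M21 (mm10), which held 22232 of the 22337 identifiers.

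After rounding, the counts went into edgeR 4.0.16 (R 4.3.3; filterByExpr, TMM factors, quasi-likelihood fit of 4 group means to all 16 libraries, contrast caffeine minus nicotine), with Benjamini-Hochberg adjustment over 14674 genes and a threshold of 0.05. Levels of single genes are TMM-scaled CPM, as are the summed globin, Ifit3 and Sept2 levels. Sums over a gene list are CPM without TMM factors. DESeq2 1.42.0, limma 3.58.1 on log2(FPKM + 1) and log2(FPKM + 0.1), other filters and scaling, a replicate block, only 8 libraries, and leaving out libraries were alternatives. The steps were tested on simulated data. Totals ran from 9.04 to 24.3 M estimated counts, so 1 CPM is about 9.04 counts in the smallest library.

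The members and the 49 gene lists (1046 of 1049 genes in the table) were chosen with earlier results of these data known, so no list was tested. Named genes were the 5 of smallest p on each side, 18 receptor, transmitter, activity and marker genes whatever their test, and the gene with the smallest p of a list. As no gene passed, other list members were named after their values were seen. Promoter windows and motifs came from RefSeq (GRCm38.p6), with 250 bases before and 50 after a start. No libraries of a group agreed within sampling noise, with a chi-square per degree of freedom of at least 11.7.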

Additional observations from a re-analysis of the deposited data

Results flagged for a closer look

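For each gene named in the text, the library farthest from the others of its group was tested with Dixon's gap ratio at its 95% critical value. Of 180 groups, 17 had such a library, and chance alone marks about 1 in 20 groups. In 8 of the 17 it was nicotine replicate 2, with 336.8 CPM of Omp, 56.96 CPM of the olfactory channel gene Cnga2, 29.55 CPM of the secreted lectin gene Reg3g, 87.9 CPM of Ogn, 83.4 CPM of the GABA transporter gene Slc6a13, 30.62 CPM of Bche, 168 CPM of B2m and 38.97 CPM of Ifit3. In 5 it was caffeine replicate 4. That library was high for Drd2 (6.63 CPM), Adora2a (35.69 CPM), Penk (620 CPM) and Tac1 (120.5 CPM), and low for the matrix gene Thbs4 (5.646 CPM), which was chosen after its values were seen. Caffeine replicate 3 was low for Sgk1 (66.93 CPM), nicotine replicate 3 was high for Ciart (27.04 CPM), and caffeine replicate 1 was high for Igfbpl1 (10.21 CPM) and Sdf2l1 (25.17 CPM).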

How the results depend on the processing

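No gene passed the adjusted threshold in edgeR under any alternative run, including 8 fits that each left out 1 library, and 0 passed with limma on FPKM. DESeq2 called 5 genes, 2 higher with caffeine and 3 with nicotine, of which 4 were on a list. The unadjusted count of 1365 genes ran from 853 to 1672 when 1 library was left out. It was 853 without caffeine replicate 1, 869 without caffeine replicate 2 and 865 without nicotine replicate 2. With a replicate block it was 1352 and 0 genes passed. The labels state no link between libraries with the same replicate number. Deviations of same-numbered libraries correlated at -0.026, -0.063, -0.069 and 0.16, and not every library correlated best with its own number. So few correlations cannot exclude a shared batch or day. The unadjusted count was 1773 with only the 8 libraries and 1695 with no filter. Of 1472 values for 87 named genes under the alternatives, 1447 kept their direction without passing, 5 passed with DESeq2 and 20 changed direction. Leaving out 1 library at a time, log2 fold changes ran from -0.85 to 0.19 for Drd1, -0.074 to 0.25 for Chrna7, -0.19 to 0.98 for Th, -0.74 to 0.22 for Pdyn, -0.61 to 0.025 for Tac1, -3.40 to 2.80 for Omp, -2.26 to 0.21 for Bche, -4.66 to 1.39 for Cnga2 and -3.85 to 0.32 for Reg3g. Leaving out nicotine replicate 2, saline replicate 3 and arecoline replicates 2 and 3 together, they were -0.051 for Chrna7, 2.81 for Omp, 0.21 for Bche, 1.40 for Cnga2 and 0.32 for Reg3g. Omp was also at 0.51 with limma on log2(FPKM + 0.1). The cause of these changes was not tested beyond the libraries named. Values under 1 CPM rest on few reads.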
